A study of Homo sapiens with 9 samples.

Results

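Genes whose transcripts are known substrates of A-to-I RNA editing were examined in HEK293 cells before and after ectopic expression of an editing enzyme. The list holds 33 of the 54562 genes in the expression table. It was drawn up from known editing sites, with earlier results of these data known, and covers genes with sites in the coding sequence or in the 3' untranslated region (UTR). For members whose site was not located in the genome here, *MFN1*, *RHOQ*, *PODXL*, *CCNI*, *SON*, *CDK13* and *SRP9* among them, membership rests on the list alone, and a recoding site in *MFN1* is uncertain. All 33 were found in the table by their Ensembl identifiers. They were set out here in 4 groups: 5 ionotropic glutamate receptor subunits, 6 other receptor, channel and vesicle release genes, 18 genes for proteins of other kinds, and 4 genes listed for sites in the 3' UTR. These groups were set with earlier results of these data known, and the ion channel gene *TMEM63B* was placed with the 18.

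HEK293 is an established line derived from human embryonic kidney. The cells were transfected with an empty vector (EV) or with a pCMV6-AC plasmid carrying an isoform of ADARB1, a double-stranded RNA adenosine deaminase. The isoform was the *Alu* exon skipping (Short) or *Alu* exon inclusion (Long) form. RNA was collected 48 hours later, and each group had 3 libraries, made from different cell passages. Libraries with the same replicate number were taken here to share a passage, which the sample labels do not state. The plasmids were introduced transiently with a lipid reagent, so every group shares the transfection and no group is untreated. Expression is given in FPKM, fragments scaled to the length of the gene and to the mapped fragments of the library, which allows levels to be compared between genes.

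A-to-I editing converts adenosine to inosine within double-stranded RNA. Ribosomes read inosine as guanosine, so a site in a coding exon can change an amino acid. ADAR and ADARB1 are the catalytically active editing enzymes of human cells. ADARB1 is best known for editing glutamate receptor transcripts in the brain, where the Q/R site of *GRIA2* controls the calcium permeability of AMPA receptors. An editing level is a ratio of edited to total reads at a site. The expression of the substrate gene decides how many transcripts are available for it, and this is the quantity described here. Edited and unedited read counts were not analysed here.

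The windows below give the sequence around a single codon in the glutamate receptor genes and in substrates that HEK293 cells transcribed. Each is 27 bases of the GRCh37 (hg19) genome, written 5' to 3' on the gene's own strand. The adenosine in capitals is that of the recoding site, or of the matching codon in *GRIA3* and *GRIA4*. The first set gives the glutamine codon of the channel pore in the 5 glutamate receptor subunits. In *GRIA2*, *GRIK1* and *GRIK2* this is the edited Q/R site. In *GRIA3* and *GRIA4* it is the matching codon, shown for comparison, and the known recoding site of these genes lies elsewhere.
GRIA2, chr4:158257862-158257888, plus strand: ggtgcctttatgcAgcaaggatgcgat
GRIA3, chrX:122551592-122551618, plus strand: ggtgcctttatgcAgcaaggatgtgat
GRIA4, chr11:105795458-105795484, plus strand: ggtgcttttatgcAgcaaggatgtgac
GRIK1, chr21:30953737-30953763, minus strand: ggagctctcatgcAgcaaggtacaccg
GRIK2, chr6:102372576-102372602, plus strand: ggagctctcatgcAgcaaggtatacga

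The *GRIA2* adenosine lies at position 158257875 of chromosome 4 in the codon for residue 607. The *GRIK1* and *GRIK2* windows leave the coding exon at their 3' end, with 19 of the 27 bases in it. A second set comes from genes that HEK293 cells transcribed, and holds every such gene whose site was located here.
FLNA Q/R, chrX:153579937-153579963, minus strand: gtttctagccttcAggtgaggcaccga
COPA I/V, chr1:160302231-160302257, minus strand: gcgcgtttgggatAtttctggtgagct
TMEM63B Q/R, chr6:44120336-44120362, plus strand: gcctacgagttccAgtttggcgcagcc
BLCAP Y/C, chr20:36147559-36147585, minus strand: gcagagatcatgtAttgcctccagtgg
COG3 I/V, chr13:46090358-46090384, plus strand: caccattaaggaaAtttccctggacct
NEIL1 K/R, chr15:75646073-75646099, plus strand: cccacagggggcaAaggctacgggtca
IGFBP7 R/G, chr4:57976273-57976299, minus strand: tggcggcgccggcAgggggtactgcgc
GLI1 R/G, chr12:57864611-57864637, plus strand: tgccatggatgctAgagggctacagga

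Known recoding sites were located in 14 members. The base before the edited adenosine was C in 6, A in 4 and T in 4 of them, and G in 0. The base after it was G in 8, T in 5 and A in 1. These counts describe the located sites, which include those of *HTR2C*, *KCNA1* and *GABRA3* beside the ones printed, and not what the enzyme selects. Several windows hold bases outside the coding sequence: 15 of 27 bases are coding for *FLNA*, 20 for *COPA* and 20 for *NEIL1*. In *BLCAP* 18 of 27 are coding, since the edited tyrosine is residue 2 and the window begins before the start codon.

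The enzymes themselves were measured first. *ADARB1* stood at 7.66, 7.999 and 8.61 FPKM in EV replicates 1 to 3, against 1889, 4145 and 2735 FPKM in Short and 1695, 3449 and 2080 FPKM in Long. Every library with an isoform plasmid was above every EV library. *ADAR*, the enzyme that edits most sites in *Alu* repeats, was at 61.0 ± 2.01 FPKM (SD, n = 3) in EV, with log2 fold changes of 0.08 in Short and 0.08 in Long that did not pass the test (limma adjusted p = 0.356 and 0.346). *ADARB2*, a family member with no known editing activity, was at 1.08 ± 0.232 FPKM (SD, n = 3).

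Markers of HEK293 cells were present: *VIM* averaged 143 FPKM, the neurofilament gene *NEFM* 58.2 FPKM, *LIN28B* 18.6 FPKM, *INA* 11.3 FPKM and *PAX2* 2.28 FPKM in EV. *LIN28B*, an RNA-binding protein gene, fell in Long, from 15.2, 15.1 and 25.5 FPKM in EV to 8.85, 7.90 and 23.5 FPKM (log2 fold change -0.56, limma adjusted p = 0.0223). The change was -0.39 with correction for GC content (adjusted p = 0.0926 in limma). Its limma adjusted p was 0.704 without the passage block, 0.162 without replicate 1 and 0.192 without replicate 2. It was 0.135 without the filter on low values and 0.0540 without the eBayes trend. The other 4 markers were not called in Long, where 8.32% of all genes tested were called, and none of the 5 in Short, where 0.0362% were. Of 6 markers of mature neurons, 3 averaged at least 1 FPKM in EV (*GAD1* 6.51, *SYP* 6.09 and *SYT1* 1.99 FPKM). The other 3 were below it, with *SLC17A7* at 0.878, *SNAP25* at 0.754 and *RBFOX3* at 0.561 FPKM. None of 3 astrocyte markers and none of 4 haematopoietic markers reached 1 FPKM, and of 4 fibroblast markers only *COL1A1* did, at 10.7 FPKM.

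Which of the known substrates HEK293 cells transcribe was asked in the EV libraries. Of the 33 genes, 21 averaged at least 1 FPKM, 16 at least 10 FPKM and 6 at least 50 FPKM, and the median over all 33 was 6.997 FPKM. Of all genes listed, 13815 averaged at least 1 FPKM, and of the genes annotated as protein-coding 63.6% did. None of the 11 genes grouped as receptor, channel and release genes reached 1 FPKM in any of the 9 libraries, whereas all 18 genes for other proteins and 3 of the 4 genes listed for 3' UTR sites averaged more than that. This difference depends on the grouping, since *TMEM63B*, an ion channel gene among the 18, averaged 19.5 FPKM.

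**Figure D1:**
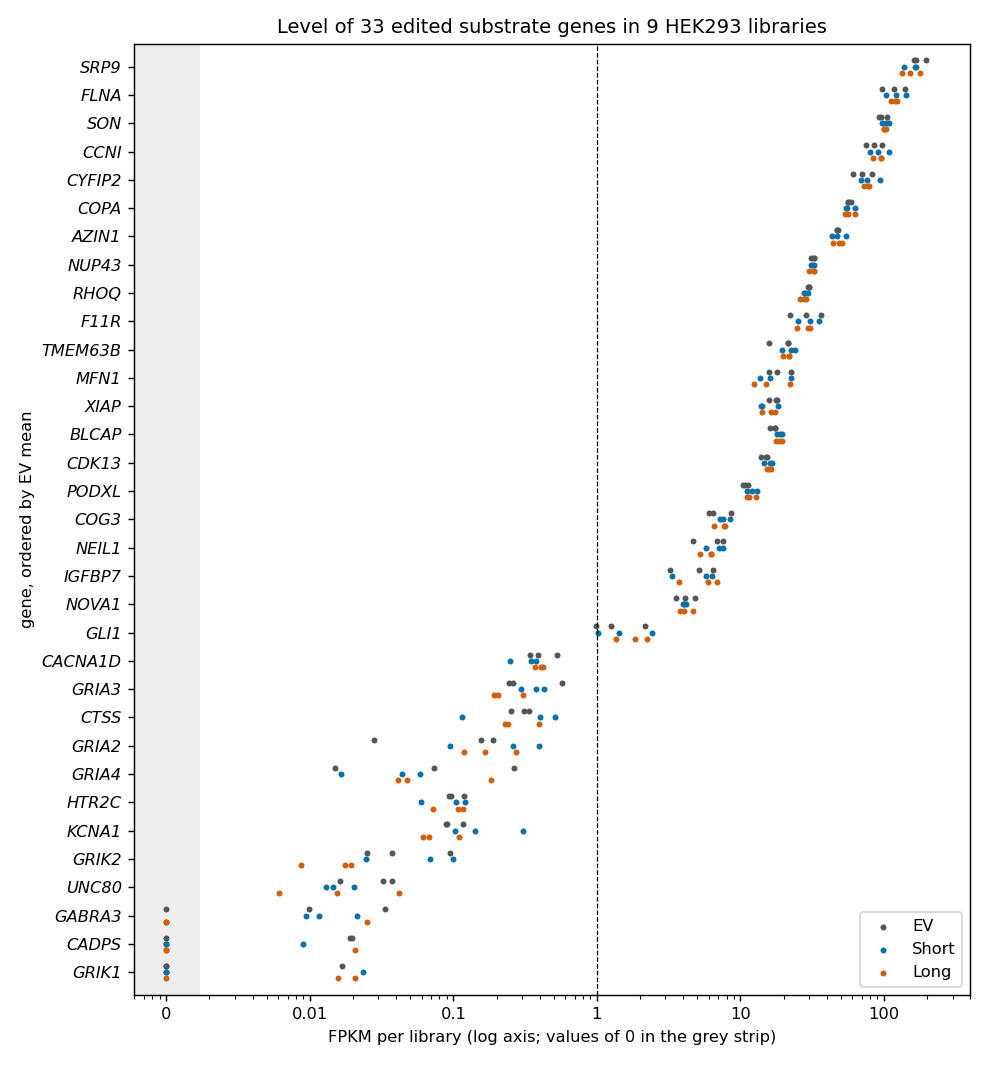
FPKM of the 33 substrate genes (rows, ordered by EV mean) in each of the 9 libraries (points, coloured by group) on a log axis, with values of 0 in the grey strip and a dashed line at 1 FPKM. All 99 values of the 11 receptor, channel and release genes lie left of the line, and the 3 groups overlap in nearly every row.

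*GRIA2*, the AMPA receptor subunit that carries the classic Q/R site, was measured at 0.0282, 0.189 and 0.157 FPKM in EV replicates 1 to 3. In Short it was at 0.262, 0.0940 and 0.393 FPKM, and in Long at 0.118, 0.271 and 0.167 FPKM. The groups overlapped, and the 3 EV libraries alone differed more from each other than the group means did (0.125, 0.2496 and 0.185 FPKM in EV, Short and Long). *GRIA3* averaged 0.357 ± 0.182 FPKM (SD, n = 3) in EV and *GRIA4* 0.118 ± 0.131 FPKM (SD, n = 3). Their neighbours in the order of levels could not be told apart within these SDs.

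Of the kainate receptor subunits, *GRIK2* was at 0.0251, 0.0942 and 0.0374 FPKM in EV, 0.0987, 0.0246 and 0.0688 FPKM in Short and 0.0176, 0.00866 and 0.0194 FPKM in Long. The 3 Long values lay below all the others (exact two-sided permutation test against EV, p = 0.1, the smallest that 3 libraries against 3 allow). At this level the gene was not among those tested with limma, and the share of such low genes without overlap was not computed. *GRIK1* was listed at 0 in 5 of the 9 libraries. Its EV libraries were at 0, 0 and 0.0167 FPKM, its Short libraries at 0.0233, 0 and 0 FPKM and its Long libraries at 0, 0.0156 and 0.0208 FPKM, the lowest EV mean of the list.

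The other receptor, channel and release genes were also below 1 FPKM. *HTR2C*, a serotonin receptor edited at several neighbouring adenosines, averaged 0.103 ± 0.0130 FPKM (SD, n = 3) in EV, and the potassium channel gene *KCNA1* 0.0987 ± 0.0160 FPKM (SD, n = 3). *CACNA1D*, a voltage-gated calcium channel subunit, was the highest of the 11 at 0.419 ± 0.0970 FPKM (SD, n = 3). *UNC80*, a subunit of the sodium leak channel complex, averaged 0.0286 FPKM.

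*GABRA3*, a GABA receptor subunit, was at 0, 0.0334 and 0.00985 FPKM in EV, 0.0115, 0.0213 and 0.00943 FPKM in Short and 0.0250, 0 and 0 FPKM in Long. *CADPS*, which primes dense-core vesicles for release, was at 0.0196, 0.0191 and 0 FPKM in EV, 0, 0.00900 and 0 FPKM in Short and 0, 0.0205 and 0 FPKM in Long. Together with *GRIK1* these genes hold all 13 zeros among the 297 values of the list. The lowest values above 0 were 0.00943 FPKM for *GABRA3* and 0.00900 FPKM for *CADPS*. The table gives no fragment counts, and the highest level that a value of 0 allows was not estimated.

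Of 33 matched relatives of these receptor, channel and release genes that are not on the list, 3 averaged at least 1 FPKM in EV and 9 were listed at 0 in all 3 EV libraries, among them the AMPA receptor gene *GRIA1*. The orphan glutamate receptor gene *GRID1* reached 5.74 FPKM, *CADPS2* 5.87 FPKM and *CACNA1C* 1.65 FPKM. The sodium leak channel gene *NALCN*, whose product works with UNC80, was at 5.15 FPKM. Of 10 auxiliary subunits of AMPA receptors, 3 averaged at least 1 FPKM, with *CNIH2* the highest at 2.46 FPKM.

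The genes for proteins of other kinds covered a wide span of levels. *SRP9*, a signal recognition particle subunit that binds the *Alu*-related part of the particle's RNA, was the most abundant. It stood at 161, 166 and 197 FPKM in EV, and 97.2% of the genes expressed in EV at 1 FPKM or more had a lower mean. *FLNA*, an actin cross-linking protein, followed at 118 ± 21.7 FPKM (SD, n = 3), and *SON*, an RNA-binding protein of nuclear speckles, at 97.4 ± 6.03 FPKM (SD, n = 3). *CCNI*, a cyclin, averaged 85.3 FPKM, *CYFIP2*, a subunit of the actin-regulating WAVE complex, 71.1 FPKM, and *COPA*, the alpha subunit of the COPI vesicle coat, 56.8 FPKM.

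Below these came *AZIN1*, an inhibitor of antizyme, at 47.3 FPKM, and *RHOQ* at 29.8 FPKM. *TMEM63B*, *MFN1* (a mitochondrial fusion GTPase), *BLCAP*, *CDK13* and *PODXL* lay between 19.5 and 10.8 FPKM. *COG3*, a subunit of the Golgi tethering complex COG, averaged 6.997 FPKM, the DNA glycosylase gene *NEIL1* 6.36 FPKM, *IGFBP7* 4.95 FPKM and the neuronal splicing factor gene *NOVA1* 4.15 FPKM. *GLI1*, the transcription factor of Hedgehog signalling, was the lowest of the group. Its EV libraries stood at 1.26, 2.15 and 0.987 FPKM, and 5.55% of the genes with at least 1 FPKM had a lower mean.

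Of the genes listed for 3' UTR sites, *NUP43*, a nucleoporin, averaged 32.0 FPKM, *F11R*, a tight junction adhesion molecule, 29.1 FPKM and *XIAP*, a caspase inhibitor, 17.1 FPKM in EV. *CTSS*, a lysosomal protease of antigen-presenting cells, was at 0.3002 ± 0.0427 FPKM (SD, n = 3), and its values ran from 0.115 to 0.507 FPKM over the 9 libraries. In bulk RNA a low level in every cell and a higher level in few cells cannot be told apart.

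Some of these values may include reads from other genes. *SRP9P1* (chr10:93566936-93567196, minus strand), a processed copy of *SRP9*, averaged 219 ± 14.7 FPKM (SD, n = 3) in EV, above *SRP9* itself. All of its 212 possible 50-base words (100%) also occur in *SRP9* transcripts, so reads within this stretch cannot be assigned to either gene by sequence and the levels of both are uncertain. Of *NEIL1*, 26.4% of the exon bases overlap exons of *MAN2C1* on the opposite strand, which averaged 16.1 FPKM over the 9 libraries. By the same measures, 13.5% of *IGFBP7* overlap *POLR2B* at 57.2 FPKM, 10.2% of *RHOQ* overlap *PIGF* at 21.3 FPKM and 5.02% of *NUP43* overlap *PCMT1* at 104 FPKM. Of *CACNA1D*, the highest of the receptor, channel and release genes, 7.29% overlap *CHDH* at 6.13 FPKM, a level above that of *CACNA1D* itself. The libraries were strand-specific, but whether the strand was used in computing FPKM is not given in the sources used here.

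Whether the substrates change when an isoform is expressed was tested across 13801 genes, those averaging 1 FPKM or more over the 9 libraries. Of the 33 substrates, 21 passed this filter. The comparisons of Short and Long with EV share the EV libraries. In each of the 3 comparisons, 0 of the 21 had an adjusted p under 0.05 (limma with the passage as a block, Benjamini-Hochberg adjustment over all genes tested). The share of all genes called was 0.0362% for Short against EV, 8.32% for Long against EV and 0.00725% for Long against Short. The lowest adjusted p of any substrate was 0.191, 0.120 and 0.853 in these comparisons.

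The share for Long against EV depended on the settings. The 1148 genes behind it became 2 without the passage block, 1 after correction for GC content, 1 without the filter on low values, 2 without replicate 1 and 100 without replicate 2. At an unadjusted p under 0.05, limma passed 4 of the 21 for Short against EV, 1 for Long against EV and 0 for Long against Short, where 22%, 24.4% and 7.54% of all genes tested passed.

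**Figure D2:**
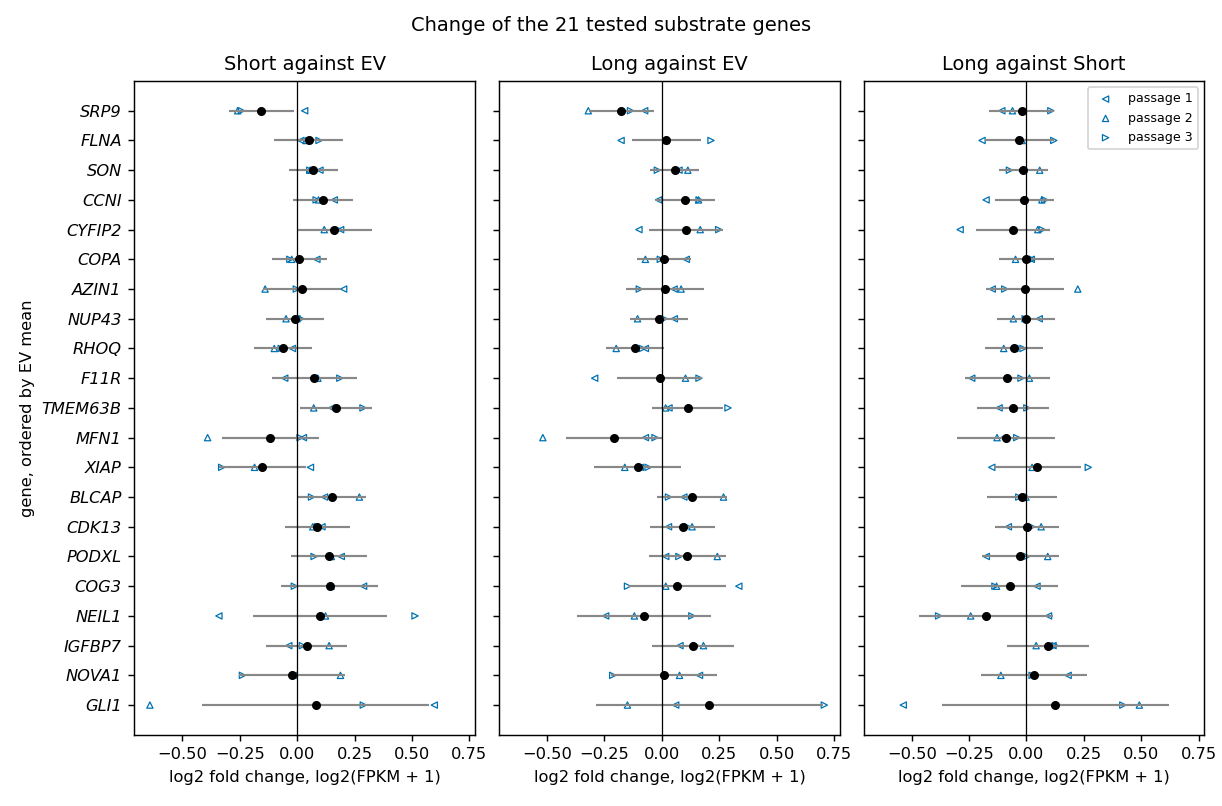
Change between groups, as the difference in log2(FPKM + 1), of the 21 substrate genes tested (rows, ordered by EV mean) in the 3 comparisons. Black points with bars are limma estimates with 95% intervals, triangles the change within each passage, and the estimates run from -0.21 to 0.21 for Long against EV.

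The changes were small in size. For Short against EV the log2 fold changes ran from -0.16 for *SRP9* to 0.17 for *TMEM63B*, and the 95% interval of all 21 lay within 1.5-fold of no change. For Long against EV they ran from -0.21 for *MFN1* to 0.21 for *GLI1*, and 20 of the 21 intervals lay within 1.5-fold, as did 20 for Long against Short. Over all genes tested, 95.5%, 92% and 96.2% of intervals did so. The exception in both was *GLI1*.

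The median absolute log2 fold change of the 21 was 0.09 for Short, 0.10 for Long and 0.03 for Long against Short, beside 0.10, 0.10 and 0.06 over all genes tested. Most estimates were above 0 against EV, 15 of 21 for Short and 14 of 21 for Long, with medians of 0.07 and 0.02. Over all genes the medians were 0.04 and 0.04. These directions rest on the scale of the deposited values. With every library rescaled to the same sum, 9 of the 21 were above 0 in each comparison with EV. The medians also moved with the replicates, to 0.03 for Short without replicate 3 and 0.05 for Long without replicate 1.

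*SRP9* had the lowest adjusted p in both comparisons with EV. It was at 161, 166 and 197 FPKM in EV, 164, 139 and 166 FPKM in Short and 152, 133 and 179 FPKM in Long. The groups overlapped, and Long was below EV in each of the 3 passages while Short was below it in 2. The log2 fold change was -0.16 (standard error 0.06) for Short and -0.18 (standard error 0.06) for Long, with limma adjusted p = 0.191 and 0.120. The estimate for Short was -0.25 without replicate 1 and -0.11 without replicate 2, and that for Long -0.11 without replicate 2. With correction for GC content the estimate for Short was -0.02 (adjusted p = 0.895 in limma). Rescaling to the same sum gave -0.25 for Long with an adjusted p of 0.0238, and correction for GC content 0.04 with an adjusted p of 0.772, in the same limma fit.

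Its copy *SRP9P1* had log2 fold changes of -0.17 in Short and -0.17 in Long, with limma adjusted p = 0.309 and 0.293. *MFN1* was at 15.8, 18.1 and 22.4 FPKM in EV, 16.1, 13.6 and 22.6 FPKM in Short and 15.0, 12.3 and 21.96 FPKM in Long. The libraries of passage 2 set its estimate for Long, which was -0.21 (standard error 0.10, limma adjusted p = 0.218) with all passages, -0.05 without replicate 2 and -0.11 with the GC correction.

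*TMEM63B* was at 21.4, 21.4 and 15.9 FPKM in EV, 23.8, 22.5 and 19.6 FPKM in Short and 21.8, 21.6 and 19.6 FPKM in Long. Short was above EV in each passage, by a log2 fold change of 0.17 (standard error 0.07, limma adjusted p = 0.195), and the groups overlapped. The estimate was 0.11 without replicate 3, 0.09 with libraries rescaled to the same sum and 0.06 with the GC correction. *GLI1* was at 2.42, 1.02 and 1.43 FPKM in Short and 1.36, 1.84 and 2.25 FPKM in Long. Its log2 fold change of 0.21 for Long had a standard error of 0.22 (limma adjusted p = 0.618), and became -0.04 without replicate 3 and 0.12 with the GC correction.

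The abundant substrates *FLNA* and *SON* were close to their EV levels. *FLNA* was at 140, 118 and 96.9 FPKM in EV, 142, 121 and 104 FPKM in Short and 124, 119 and 113 FPKM in Long. Its log2 fold changes were 0.05 and 0.02, with 95% intervals of -0.10 to 0.20 for Short and -0.13 to 0.17 for Long. Both turned below 0 with rescaling to the same sum (-0.03 and -0.06) and with the GC correction (-0.08 and -0.07). The estimate for Long was 0.12 without replicate 1 and -0.08 without replicate 3. *SON* was at 95.6, 92.4 and 104 FPKM in EV, 102, 96.1 and 108 FPKM in Short and 101, 100.05 and 103 FPKM in Long. Its log2 fold changes were 0.07 and 0.06 (limma adjusted p = 0.413 and 0.513). Rescaling to the same sum turned them to -0.01 and -0.02. With the GC correction they were 0.02 in Short and -0.002 in Long.

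A few of the 21 substrates tested had groups that did not overlap although the change did not pass the test. These were *RHOQ* and *BLCAP* for Short against EV and *RHOQ*, *CDK13* and *BLCAP* for Long against EV, with none for Long against Short. The shares of all genes tested without overlap were 13%, 13.6% and 3.83%. *BLCAP* was at 17.4, 16.0 and 17.3 FPKM in EV, 19.0, 19.5 and 18.1 FPKM in Short and 18.7, 19.4 and 17.6 FPKM in Long. The log2 fold changes were 0.15 and 0.13 (limma adjusted p = 0.226 and 0.266), and in exact permutation tests, two-sided, each reached p = 0.1, the smallest possible with 3 libraries a group. Without replicate 2 the estimates were 0.09 and 0.06, and with rescaling to the same sum 0.07 and 0.06.

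*RHOQ* was lower, at 30.0, 29.9 and 29.6 FPKM in EV, 29.6, 27.9 and 28.1 FPKM in Short and 28.5, 25.95 and 27.9 FPKM in Long, with log2 fold changes of -0.06 and -0.12 (limma adjusted p = 0.537 and 0.234). The estimate for Long was -0.08 without replicate 2, and with rescaling to the same sum the estimates were -0.15 and -0.19. Long was the lowest group in each passage. Processed copies *RHOQP1*, *RHOQP2* and *RHOQP3* share 32.8%, 48.3% and 42.1% of their 50-base words with *RHOQ*, at EV levels of 1.703, 2.87 and 3.56 FPKM.

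Long and Short were then compared directly, which asks whether the isoforms differ in the supply of any substrate. The log2 fold changes ran from -0.18 for *NEIL1* to 0.13 for *GLI1*. Of the 21 estimates 16 were below 0 and 5 above, with a median of -0.0195 beside -0.0185 over all genes tested. The number below 0 was 13 with rescaling to the same sum, 11 without replicate 1 and 17 without replicate 3. The estimate for *GLI1* was 0.46 without replicate 1, -0.06 without replicate 2 and -0.02 without replicate 3. *NEIL1* was at 5.77, 7.51 and 7.14 FPKM in Short and 6.24, 6.19 and 5.24 FPKM in Long, and at 7.58, 6.81 and 4.70 FPKM in EV. The groups overlapped, and the 95% interval of the difference was -0.47 to 0.12. The estimate was -0.31 without replicate 1 and -0.07 without replicate 3. The direction was the same in all 3 passages for 4 of the 21, where 28.7% of all genes tested were so. Against EV it was the same for 9 of the 21 with Short and 9 with Long, beside 45.3% and 45.5% of all genes tested.

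The passages, read from the replicate numbers, were compared in the same libraries. Passage cannot be told apart here from any other difference between the replicate numbers. By limma's F-test of the passage terms in the same fit, which was added after the values had been seen, 8 of the 21 differed between passages at an adjusted p under 0.05, a share close to the 36.4% of all genes tested. *IGFBP7* averaged 6.55, 5.60 and 3.42 FPKM over the 3 libraries of passages 1, 2 and 3, a 1.92-fold span (limma adjusted p = 0.000447). *MFN1* averaged 15.6, 14.7 and 22.3 FPKM and *F11R* 33.8, 29.9 and 24.1 FPKM.

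The other genes that differed were *CCNI*, *FLNA*, *SRP9*, *CYFIP2* and *TMEM63B*, with spans of 1.21-fold to 1.30-fold. In 6 of the 8 passage 1 was the highest and passage 3 the lowest, and in *MFN1* and *SRP9* passage 3 was the highest and passage 2 the lowest. Among the EV libraries alone the coefficient of variation ran from 0.748% for *RHOQ* to 41.5% for *GLI1*, with 9 of 21 genes under 10%.

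**Figure D3:**
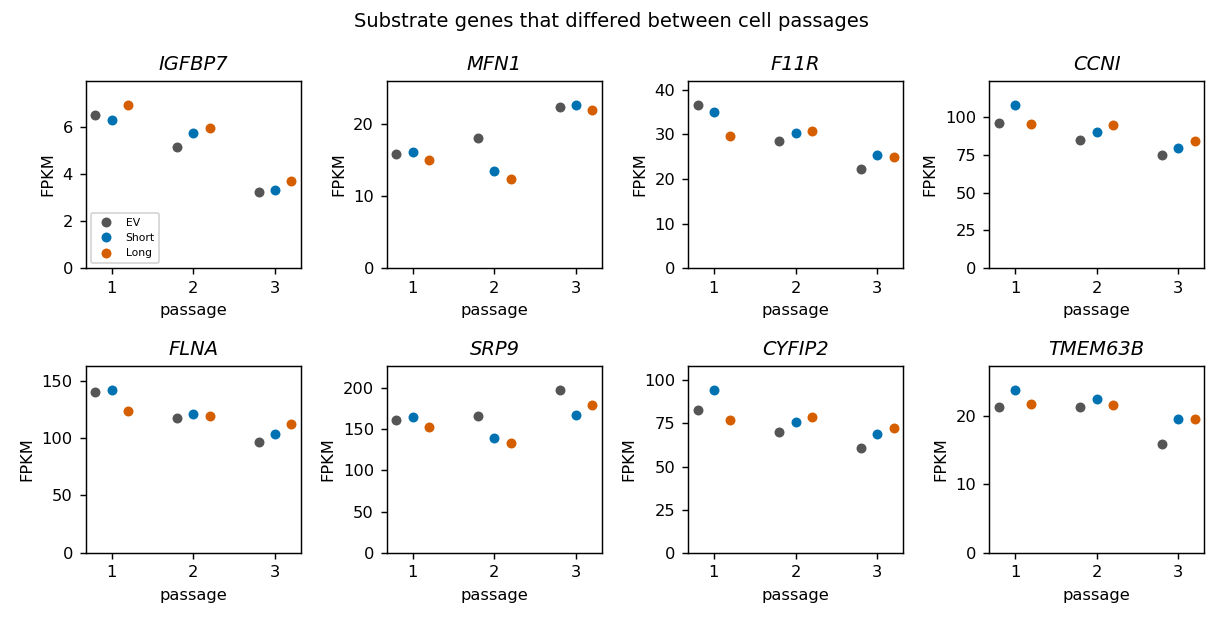
FPKM of the 8 substrate genes that differed between cell passages, 1 panel per gene. Passage, taken as the replicate number, is on the horizontal axis, with 1 point per library coloured by group. The vertical axes start at 0. In *IGFBP7* all 3 libraries of passage 3 lie below those of passages 1 and 2, whichever plasmid they carried.

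Several substrates are subunits of complexes, and their partner genes were measured in the same libraries. The 8 partner lists hold 54 genes found in the table, of which 45 passed the filter. For Short against EV and for Long against Short, 0 of the 45 were called. At an unadjusted p under 0.05, limma passed 9, 13 and 4 of the 45 for Short against EV, Long against EV and Long against Short. Of all genes tested, 22%, 24.4% and 7.54% passed. For Long against EV 6 of the 45 were called, or 13.3% beside 8.32% of all genes: 1 was higher and 5 were lower, beside 1.99% and 6.33% of all genes.

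*COPB1*, the beta subunit of the coat that contains COPA, fell in Long, from 51.9, 51.8 and 76.4 FPKM in EV to 35.4, 32.95 and 65.0 FPKM (log2 fold change -0.47, limma adjusted p = 0.00965). Each Long library was below the EV library of its passage, and passage 3 was high in both groups. *SRP72*, a partner of SRP9 in the signal recognition particle, fell from 50.02, 49.4 and 67.2 FPKM to 32.9, 30.7 and 57.5 FPKM (log2 fold change -0.49, limma adjusted p = 0.00965). *SRP14*, which pairs directly with SRP9, was at 125, 138 and 146 FPKM in EV and 148, 142 and 157 FPKM in Long and did not pass (limma adjusted p = 0.261).

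*NCKAP1*, a WAVE complex subunit beside CYFIP2, fell by 0.50 on the log2 scale, and *AMD1*, an enzyme of polyamine synthesis, the pathway that AZIN1 promotes, fell by 0.38. *AHCTF1*, a nucleoporin that binds the complex containing NUP43, fell by 0.85, and its estimate was -0.51 without replicate 1 and -1.18 without replicate 3. *SRM*, the spermidine synthase gene, rose by 0.28 in Long. The limma adjusted p-values of these genes were 0.0132, 0.0186, 0.0473 and 0.0160. In Short their log2 fold changes were -0.22, -0.12, -0.39 and 0.30 and did not pass.

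The 5 lower genes have 38.9% to 40.8% GC in their longest transcript and *SRM* 63.7%, beside a median of 47.8% over the genes tested. After correction for GC content 0 of the 6 were called (adjusted p from 0.0518 to 0.142 in limma). The log2 fold changes kept their direction, at -0.40 for *COPB1*, -0.36 for *SRP72*, -0.76 for *AHCTF1*, -0.38 for *NCKAP1*, -0.25 for *AMD1* and 0.19 for *SRM*. None of the 6 was called without the passage block, without the filter on low values, without replicate 1 or without replicate 2. Without the eBayes trend *AHCTF1*, *AMD1* and *SRM* were not called (limma adjusted p = 0.0978, 0.0555 and 0.0599). With the length correction *AHCTF1* was not called (limma adjusted p = 0.0505). Among the substrates, the 15 with an estimate above 0 in Short had a median of 47.7% GC (range 38.1% to 62.1%) and the 6 below 0 had 39.6% (37.1% to 42.3%). For Long these medians were 45.9% for 14 genes (38.1% to 62.1%) and 41.6% for 7 (37.1% to 61.3%). The ranges overlapped in both comparisons, and no test of these medians was made. With the GC correction 13 of the 21 estimates were above 0 in Short and 14 in Long.

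**Figure D4:**
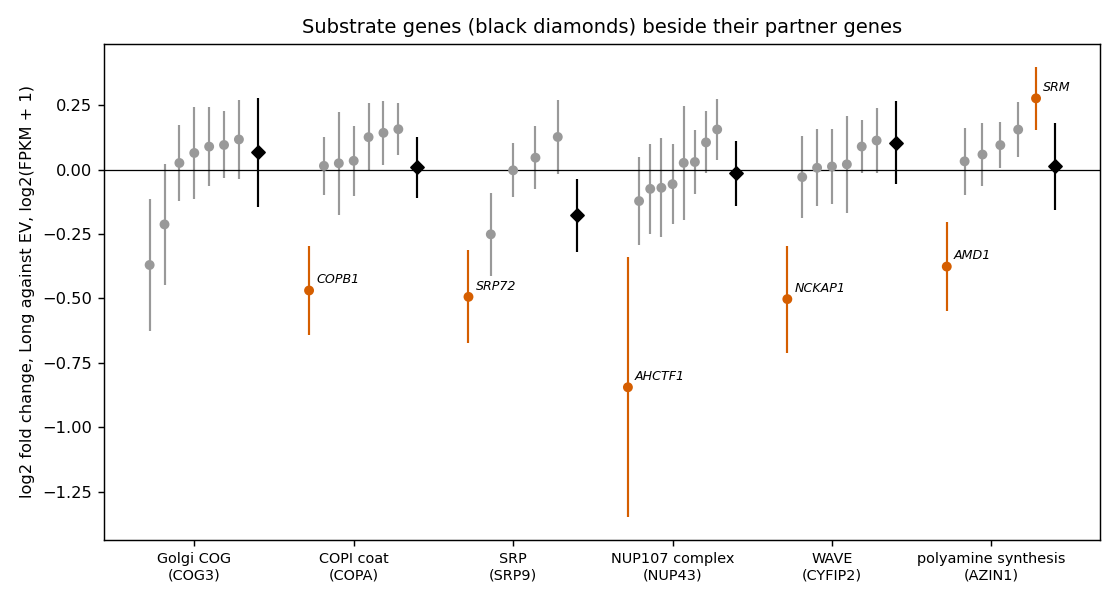
Change, as the difference in log2(FPKM + 1), of Long against EV for 6 substrate genes (black diamonds) beside the tested partner genes of each complex or pathway (points, orange and labelled where the limma adjusted p was under 0.05, otherwise grey). Bars are 95% intervals. *COPA*, *NUP43* and *AZIN1* lie near 0 beside partners that were called, while *CYFIP2* is at 0.11 and *SRP9* at -0.18. *COG3*, with no partner called, is at 0.07. None of the labelled partners was called after correction for GC content, without the passage block, or without replicate 1 or 2.

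The relatives of the substrates were tested in the same way. Of the 60 matched family genes, 26 passed the filter, and 0 were called in any of the 3 comparisons by limma, where 0.0362%, 8.32% and 0.00725% of all genes tested were called. At an unadjusted p under 0.05, 4, 2 and 0 of the 26 passed in Short against EV, Long against EV and Long against Short, beside 22%, 24.4% and 7.54% of all genes tested. The closest was *BIRC2*, which encodes an apoptosis inhibitor related to XIAP. It was at 16.0, 17.4 and 21.3 FPKM in EV and 12.3, 10.1 and 20.1 FPKM in Long, with a log2 fold change of -0.39 (limma adjusted p = 0.0561). *BIRC2* was called in Long in 5 of the 13 alternative fits (limma adjusted p from 0.0151 to 0.0416), rescaling to the same sum among them.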

How the data were processed

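The authors deposited FPKM per Ensembl gene for 9 libraries (3 each of EV, Short and Long), with no pooling. The libraries were strand-specific and paired-end, and alignment used TopHat 1.4.1 with Ensembl transcripts and the hg19 genome as references. Cufflinks is also named in the submitters' processing notes. The annotation release and the use of strand in counting are not given in the sources used here. A few very abundant transcripts lower the FPKM of all others. Fragment counts are unknown, but relative depth, read from steps in the lowest values, was 0.993 to 1.21 when EV replicate 1 was set to 1, and the FPKM summed to 517170 to 589535 per library.

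Gene names came from the GENCODE annotation of GRCh37 and matched 47578 identifiers (87.2%). Editing sites were located by codon in that annotation, and windows were read from the GRCh37 genome. FPKM were tested as log2(FPKM + 1) with limma 3.58.1 in R 4.3.3 (lmFit, eBayes with trend) on the 13801 genes averaging 1 FPKM or more, with all groups in 1 fit, the replicate number as a block, and Benjamini-Hochberg adjustment at a threshold of 0.05. Fold changes on this scale understate those of low genes. The fit was tested on simulated data. The study's methods say that transfections were repeated in different passages. That libraries of the same number share a passage is inferred, since the labels give only the number. Libraries of the same number deviated together, with correlations of 0.327 to 0.813 over 9 pairs. The 18 pairs with different numbers ran from -0.634 to 0.366, so these ranges overlap, and replicates 1 and 2 were less distinct from each other than from replicate 3. The p-values measure the spread between these transfections of 1 cell line.

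The members and the gene lists were chosen with earlier results of these data known. Named in full were the editing enzymes, the 3 highest and 3 lowest substrates in EV, the largest estimates in each direction for each isoform, all glutamate receptor subunits by level, and called relatives and partners. *BLCAP*, *RHOQ*, *CDK13*, *CYFIP2*, *NEIL1*, *BIRC2*, *SRP14*, *LIN28B*, *SRP9P1*, the *RHOQ* copies and the genes of the passage test were named after their values were seen. Alternatives were a pseudocount of 0.1, rescaling to equal sums (TPM) or by median ratios, no block, only the groups compared, no eBayes trend, each replicate left out, no filter or a minimum of 5 FPKM, and loess corrections for GC content or length (span 0.3) with the block. The passage test and the alternatives for relatives, partners and *LIN28B* were added after seeing the data. *GRIN2B*, *CYFIP1*, *FAM155A*, *FAM155B*, *NEFL* and *LHX1* were listed but not matched and are not analysed here.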

Additional observations from a re-analysis of the deposited data

How the results depend on the processing

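The depth in fragments is unknown. The receptor, channel and release genes were below the filter on low values, and the fit without it, which held all 33 genes, called 0 of them in each comparison (lowest adjusted p from limma 0.319, 0.236 and 0.850). Of the 21 substrates tested, 0 were called in 13 alternatives for Short and for Long against Short (lowest adjusted p from limma 0.125). For Long against EV 1 was called, *SRP9*, after rescaling to equal sums (TPM; log2 fold change -0.25) and with the length correction (-0.24), and 0 in the other 11, the fits without each replicate included. The cause was not tested. Without the replicate block 0 were called in every comparison, with lowest adjusted p of 0.745, 0.670 and 0.9999 in limma. The main fit, with the block, also called 0, so this pair of fits cannot show what the block does to a call. Over all genes, the 1148 called for Long against EV became 2 without it. The fits that called *SRP9* were run only with the block. The number of substrates with at least 1 FPKM in EV was 20 to 21.

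The median log2 fold change of the tested substrates moved for Short from 0.070 to -0.0139 (TPM), 0.0185 (median ratios), 0.0196 (no filter, all 33 genes), 0.0221 (GC) and 0.0436 (length), and for Long from 0.019 to -0.0564 (TPM), -0.0203 (median ratios), -0.00555 (no filter, all 33 genes), 0.0326 (GC) and 0.0351 (length). Leaving out replicates gave 0.0313 to 0.0769 for Short and 0.0239 to 0.0470 for Long.

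Of the 63 fold changes of the 21 genes, 36 changed sign under some alternative; with the settings of the report none of the 63 was called. For *FLNA* in Short the sign turned with TPM (-0.0341), median ratios (-0.00160) and GC (-0.0837), in Long with TPM (-0.0564), median ratios (-0.0203) and GC (-0.0686), and for Long against Short with GC (0.0151). *SON* turned in Short with TPM (-0.0139) and in Long with TPM (-0.0187) and GC (-0.00187). With GC *SRP9* turned to 0.0359 in Long and 0.0577 for Long against Short, and *GLI1* to -0.0411 in Short. Signs also turned when replicates were left out. *FLNA* ran from -0.0791 to 0.117 in Long and -0.106 to 0.0502 for Long against Short, *SON* from -0.0492 to 0.0167 and *SRP9* from -0.0842 to 0.0227 for Long against Short, and *MFN1* from -0.189 to 0.0198 in Short. *GLI1* ran from -0.177 to 0.443 in Short, -0.0447 to 0.384 in Long and -0.0585 to 0.456 for Long against Short.

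The partner genes called in Long, 6 in the report, became 0 without the replicate block, 0 without the filter, 0 with the GC correction, 3 without the eBayes trend, 8 with TPM, 8 with median ratios, 8 at a minimum of 5 FPKM, 7 with the length correction and 0 to 7 with a replicate left out. Among the relatives 1 gene, *BIRC2*, was called in Long with TPM, median ratios, a minimum of 5 FPKM, the length correction and without replicate 3 (0 to 1 over the replicates left out). The cause was not tested.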
